A study of Mus musculus with 6 samples.

Results

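The genes described here are 35 mouse genes that act in mitosis and cytokinesis, from the cyclin B kinase that starts mitosis to the proteins that cut the dividing cell in 2. They were chosen by name, as genes whose roles in cell division are well known, and matched to the probes of an expression array by gene symbol or synonym (Cdk1 is also listed under its older name Cdc2a). All 35 were among the 34964 gene names on the array. Of these, 33 passed the filter on dim probes, which asked for a signal clear of background throughout at least 1 group, as did 18225 of all names, and each of the 33 cleared it on all 6 arrays. The study used single-colour arrays of total RNA from erythroid progenitors of mouse fetal liver, taken at E14.5 (embryonic age in days) and isolated with a cell selection kit. Cells were infected with retrovirus made in 293T cells, a human embryonic kidney line, and their RNA was isolated 3 days later, after a culture in which erythroid maturation took place according to the series text. The shExosc8 group (3 arrays) received a short hairpin RNA against Exosc8, a subunit of the RNA exosome, and the shControl group (3 arrays) a hairpin against luciferase, which mouse cells lack. Both groups were grown in StemPro-34 medium with erythropoietin, dexamethasone and kit ligand. The sources used here state neither the mouse strain nor whether replicates are separate animals or separate cultures. The p-values therefore reflect the spread between these 6 samples, part or all of which may be technical.

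The cyclin B and Cdk1 kinase drives a cell from G2 into mitosis, and the spindle assembly checkpoint then holds back the anaphase-promoting complex until every chromosome is attached to the spindle. Once the complex is released by its activator Cdc20, sister chromatids part, and the central spindle and a contractile ring divide the cytoplasm. Maturing erythroblasts pass through a few divisions of this kind while they build haemoglobin, before they leave the cell cycle and expel the nucleus. Transcripts of many of these genes peak in G2 and mitosis, and their promoters often hold a cell cycle genes homology region (CHR), read by the DREAM and MuvB complexes, together with CCAAT boxes, read by the factor NF-Y.

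The promoters of 31 of the 35 genes were found in the RefSeq promoter table (GRCm38.p6), as windows of 250 bases before to 50 bases after the annotated start, the others being Kif20a, Cdc25c, Tpx2 and Aurkb. Searched on both strands, the CHR core TTTGAA occurred in 22 of the 31 (71.0%), against 18.1% of 27025 promoters in the table. The CCAAT box, with the letters CCAAT, occurred in 24 of the 31 (77.4%), against 37.9% of all. From 100 bases before the start onward, the CHR core was in 67.7% of the 31 promoters and in 8.08% of all, and the CCAAT box was in 71.0% and 24.0%. Both motifs were present in 19 of the 31, overlapping in 1 of them, and neither in 4 (Birc5, Nusap1, Mad2l1 and Nuf2). A match describes these letters and not a bound site. Windows of 180 bases are given for the 2 genes that fell in shExosc8 cells (Bub1b and Hmmr), the 2 with the highest positive differences (Nusap1 and Racgap1), and the mitotic cyclin and kinase genes Ccnb2 and Cdk1. Capitals mark TTTGAA and CCAAT on either strand, so that TTCAAA and ATTGG are the reverse strand forms, and each window runs from 150 bases before to 30 bases after the start, 5′ to 3′ on the gene's strand.
Bub1b promoter (chr2:118598061-118598240, + strand): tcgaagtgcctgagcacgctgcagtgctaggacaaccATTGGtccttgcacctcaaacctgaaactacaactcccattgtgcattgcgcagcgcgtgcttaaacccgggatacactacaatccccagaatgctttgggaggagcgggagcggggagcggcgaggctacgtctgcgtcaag
Hmmr promoter (chr11:40733408-40733587, - strand): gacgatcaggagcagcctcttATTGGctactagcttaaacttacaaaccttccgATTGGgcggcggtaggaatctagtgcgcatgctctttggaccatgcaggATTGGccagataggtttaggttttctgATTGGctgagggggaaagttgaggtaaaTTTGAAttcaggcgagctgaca
Nusap1 promoter (chr2:119618148-119618327, + strand): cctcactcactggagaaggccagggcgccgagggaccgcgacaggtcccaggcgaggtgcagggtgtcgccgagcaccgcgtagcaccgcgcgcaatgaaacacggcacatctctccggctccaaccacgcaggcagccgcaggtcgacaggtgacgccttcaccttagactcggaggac
Racgap1 promoter (chr15:99651627-99651806, - strand): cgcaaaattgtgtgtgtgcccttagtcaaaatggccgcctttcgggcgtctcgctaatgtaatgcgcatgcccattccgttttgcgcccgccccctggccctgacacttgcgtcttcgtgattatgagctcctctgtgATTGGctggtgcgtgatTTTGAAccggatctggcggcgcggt
Ccnb2 promoter (chr9:70421525-70421704, - strand): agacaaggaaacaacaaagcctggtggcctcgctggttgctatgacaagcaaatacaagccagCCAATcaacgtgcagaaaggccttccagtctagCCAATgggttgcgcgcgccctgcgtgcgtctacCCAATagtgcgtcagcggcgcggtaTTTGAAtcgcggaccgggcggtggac
Cdk1 promoter (chr10:69352883-69353062, - strand): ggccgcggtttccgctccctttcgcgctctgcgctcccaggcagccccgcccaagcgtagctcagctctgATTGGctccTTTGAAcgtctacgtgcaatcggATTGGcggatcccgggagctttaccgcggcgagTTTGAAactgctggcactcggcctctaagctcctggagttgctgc

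The Hmmr window held 1 CHR core close to the start and 4 CCAAT boxes, the Ccnb2 window 1 and 3, the Cdk1 window 2 and 2, and the Racgap1 window 1 of each. The Bub1b window held 1 CCAAT box, and its CHR core lay 41 bases after the start, outside the window shown. Nusap1 held neither motif.

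Signals were scaled to each array's 75th percentile and are given per array as a percentage of the geometric mean of the 3 shControl arrays, and differences between groups as a log2 fold change, shExosc8 over shControl, with its standard error (SE, n = 3 per group). Tests were made with limma across all 18225 genes, and adjusted p-values (Benjamini-Hochberg) have a threshold of 0.05. Exosc8 itself was at 40.4%, 40.0% and 57.4% in shExosc8 cells, against 98.5%, 97.8% and 104% in shControl cells. It fell by 1.14 ± 0.16 on the log2 scale (SE; limma, adjusted p = 0.00555), and all 3 shExosc8 arrays were below all 3 shControl arrays. With the slide column as a block the adjusted p was 0.124. Columns 2 and 3 of the slide held 1 array of each group, and within them Exosc8 differed by -1.30 and -0.77 (log2, no test). Spots well above background made up 43.1% to 49.3% on 5 arrays and 67.3% on shControl replicate 2. Across the 18225 genes, the correlation between arrays was 0.983 to 0.996 within a group and 0.949 to 0.974 between groups. All 6 arrays lay on 1 slide, the shExosc8 arrays in row 2 and the shControl arrays in row 1, so an effect of the row cannot be told apart from one of the group.

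Of the 33 mitosis genes measured, 2 fell in shExosc8 cells and 0 rose. They were Bub1b, a checkpoint kinase, and Hmmr, a spindle protein, both at about 70% of the shControl level. Across all genes tested 29.9% changed, 13.8% lower and 16.0% higher in shExosc8 cells. Rises made up 53.7% of these calls, but 66.9% after normexp background correction, 37.1% with the percentile taken over all probes and 18.0% without scaling. At an unadjusted p under 0.05, 9 of the 33 differed, 7 lower and 2 higher, where 45.0% of all genes did, 23.6% lower and 21.4% higher. On the brightest probe of each gene, which stood for it here, none of the 33 differed by 2-fold or more, a difference that 2480 of all genes showed. The 95% interval of every one of the 33 on that probe lay within a 2-fold change in either direction, against 66.8% of all genes. A dimmer Tpx2 probe, described below, had a larger difference of -0.80 ± 0.12 (log2, SE).

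The log2 fold changes of the 33 ran between -0.52 and 0.37, with a median of -0.11, and the median over all genes was -0.06. The median size of the difference, without its sign, was 0.17 for the 33 and 0.35 for all genes. Of the 33, 22 had a value below 0 and 11 above, where 10041 of all 18225 genes were below 0. Without scaling between arrays, which shifts every gene by -0.50, all 33 were below 0. Groups did not overlap for 9 genes that were lower in shExosc8 cells and 4 that were higher, where 28.4% and 23.2% of all genes showed this. The 95% intervals had a median half-width of 0.29 on the log2 scale (0.22 to 0.59) for the 33 and of 0.38 for all genes, and the SD between arrays of 1 group had a median of 0.13 in shExosc8 and 0.09 in shControl, against 0.21 and 0.14 over all genes. The RNA came from whole cultures, and fewer dividing cells and less of a transcript per cell cannot be told apart.

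**Figure D1:**
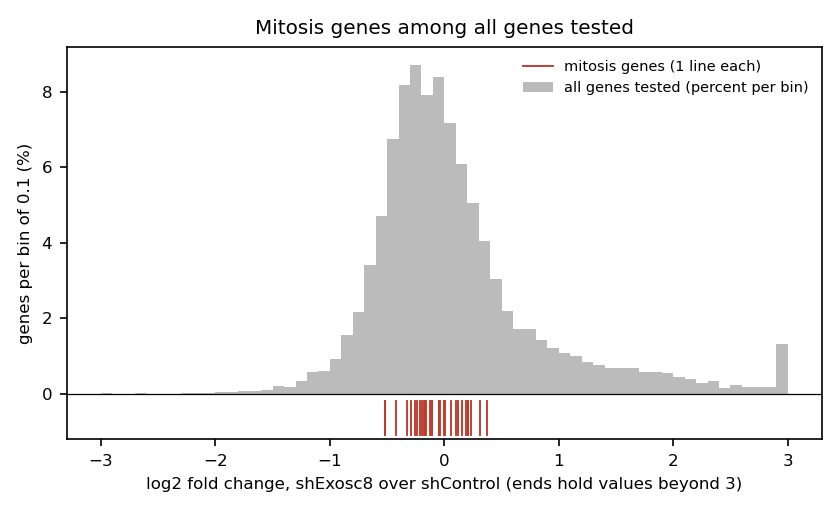
Log2 fold changes, shExosc8 over shControl (horizontal axis), of all 18225 genes as the percentage of genes in bins of 0.1 (grey bars, vertical axis), with the 33 mitosis genes as red lines below. The lines lie between -0.52 and 0.37, while the bars reach beyond 2 on the upper side.

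The checkpoint and anaphase genes had a median log2 fold change of -0.20. All 6 had a value below 0, as did 10041 of all 18225 genes. Of the 6, 1 fell past the threshold, Bub1b, as did 13.8% of all genes. The 6 were also below 0 in each of the 21 alternative fits, which draw on the same arrays and are not independent. Bub1b encodes BubR1, which binds and inhibits Cdc20 while kinetochores are unattached. Its signal was 74.0%, 69.9% and 65.7% in shExosc8 cells, against 98.8%, 97.5% and 104% in shControl cells. The lowest shControl array stood above the highest shExosc8 array. Bub1b fell by 0.52 ± 0.10 on the log2 scale (SE; 95% interval -0.76 to -0.28; limma, adjusted p = 0.0134). The adjusted p was 0.0565 without shControl replicate 1, 0.0585 without shControl replicate 3 and 0.295 with the slide column as a block. Within slide columns 2 and 3 the difference was -0.50 and -0.57 (log2, no test). Its probe lies at chr2:118466830-118466889 of mm9 on the plus strand.

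Bub1, the related kinase that marks centromeres for the checkpoint, was at 80.6%, 84.2% and 86.9% in shExosc8 cells, against 97.8%, 102% and 100.0% in shControl cells. These groups did not overlap either, but the log2 fold change of -0.25 ± 0.09 (SE) did not pass (limma, adjusted p = 0.0824). The Bub1 probe was printed 10 times on each array, and its usable spots had an SD of 0.04 to 0.07 on the log2 scale within an array, a spread that leaves out the one between samples. The checkpoint protein gene Mad2l1 was at 98.1%, 93.2% and 99.6% in shExosc8 cells, against 99.5%, 101% and 99.7% in shControl cells. Its groups overlapped at -0.05 ± 0.09 (SE), which leaves a 95% interval of -0.27 to 0.18. Cdc20, the activator that the checkpoint restrains, was at 88.9%, 79.5% and 102% in shExosc8 cells, against 103%, 97.2% and 99.6% in shControl cells, with shExosc8 replicate 3 among the controls. Ttk, the kinase at the top of the checkpoint, had a log2 fold change of -0.24 (adjusted p = 0.106) with groups that did not overlap, and Ube2c, the ubiquitin carrier of the anaphase-promoting complex, one of -0.11 (adjusted p = 0.488).

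The genes that start mitosis showed no change past the threshold. Of 9 measured, 0 rose and 0 fell in the limma test, also at an unadjusted p under 0.05, which 45.0% of all genes had. In this group 3 had values below 0 and 6 above, and the median was 0.06. Cdk1, the mitotic kinase, was at 92.4%, 91.6% and 94.2% in shExosc8 cells, against 115%, 92.3% and 94.2% in shControl cells, where shControl replicate 1 stood above the other 5 arrays. Its cyclin gene Ccnb1 was at 107%, 120.2% and 96.5% in shExosc8 cells, against 106%, 107% and 87.9% in shControl cells. The groups overlapped for both, at -0.11 ± 0.12 for Cdk1 and 0.11 ± 0.14 for Ccnb1 (SE). The second mitotic cyclin, Ccnb2, was at 124%, 128% and 103% in shExosc8 cells, against 98.7%, 105% and 96.8% in shControl cells. Replicate 3 of shExosc8 lay within the shControl range there, and the log2 fold change was 0.24 ± 0.12 (SE; limma, adjusted p = 0.169). Without that array it was 0.33 and passed (limma, adjusted p = 0.0369), as 1 of 6 mitosis genes past the threshold in that fit. The same fit had 8418 of all 18768 genes tested past the threshold.

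Polo-like kinase 1 (Plk1), which acts at centrosomes, kinetochores and the cleavage site, was at 99.1%, 82.1% and 114.5% in shExosc8 cells, against 101%, 95.8% and 103% in shControl cells. The shExosc8 arrays lay on both sides of the shControl arrays, and the log2 fold change was -0.03 ± 0.14 (SE). Nek2, a centrosome kinase, was at 113%, 107% and 127% in shExosc8 cells, against 102%, 108% and 90.6% in shControl cells, a log2 fold change of 0.21 ± 0.12 (SE; limma, adjusted p = 0.224). Aurka, the centrosome kinase that Tpx2 activates, was the one gene of the 9 whose groups did not overlap, with a log2 fold change of -0.21 (adjusted p = 0.14). The phosphatase genes Cdc25b and Cdc25c, whose products activate Cdk1, had values of 0.06 and 0.01, and Cdca3, which promotes the loss of the Cdk1 inhibitor Wee1, had 0.12. Cdc25b had the widest 95% interval of the 33, -0.54 to 0.65, with shControl arrays between 70.6% and 133%.

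**Figure D2:**
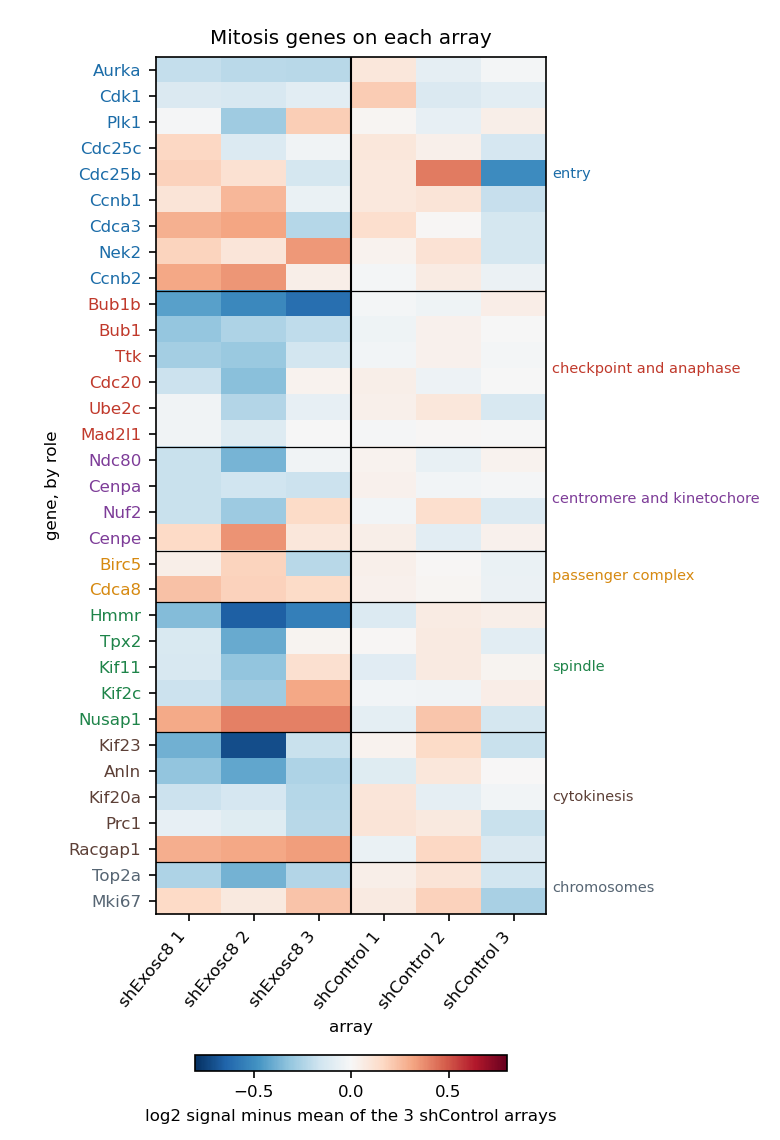
Log2 signal of the 33 mitosis genes on each array minus the mean of the 3 shControl arrays (colour), with genes grouped by role (rows) and shExosc8 arrays left of shControl arrays (columns). On the 3 shExosc8 arrays 15 genes, Bub1b and Hmmr among them, lie below 0 throughout (blue, pale where close to 0), 7, with Nusap1 and Racgap1, lie above 0 throughout (red), and 11 lie on both sides.

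Genes of the centromere and kinetochore, where chromosomes meet spindle fibres, also showed no change past the threshold in the 4 of 5 that were measured, nor one at an unadjusted p under 0.05 (limma; 45.0% of all genes). Cenpa, the histone H3 variant that marks centromeres, was at 88.5%, 89.5% and 88.8% in shExosc8 cells, against 102%, 98.4% and 99.5% in shControl cells. Its groups did not overlap and its arrays were close to each other, but the log2 fold change of -0.17 ± 0.09 (SE) did not pass (limma, adjusted p = 0.187). Ndc80, the microtubule-binding subunit of the outer kinetochore, was at 88.4%, 77.4% and 98.1% in shExosc8 cells, against 102%, 95.9% and 102% in shControl cells, with 1 shExosc8 array inside the shControl range. Its partner Nuf2 had a log2 fold change of -0.11, and the kinetochore motor gene Cenpe one of 0.20 (adjusted p = 0.207) with groups that did not overlap. Cenpf, a large kinetochore protein gene, was well above background on 2 of 3 shExosc8 and 2 of 3 shControl arrays and was not tested.

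In the chromosomal passenger complex, which corrects faulty attachments and later guides cytokinesis, the kinase gene Aurkb could not be measured. Its 1 probe was well above background on 0 of 3 shExosc8 arrays and 1 of 3 shControl arrays. Birc5, which encodes survivin, had a log2 fold change of -0.00 ± 0.13 (SE), with a 95% interval of -0.32 to 0.31. Cdca8, which encodes borealin, was at 117.5%, 113.5% and 111% in shExosc8 cells, against 102.5%, 101% and 96.7% in shControl cells. The groups did not overlap, and the log2 fold change of 0.19 ± 0.09 (SE) did not pass (limma, adjusted p = 0.16).

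Among the 5 spindle genes 1 fell and 0 rose, where 13.8% of all genes fell and 16.0% rose. Nusap1, with the highest log2 fold change of the 33, was also among the 5. Hmmr encodes a microtubule-associated protein that helps to organise spindle poles. It was at 78.5%, 63.7% and 68.4% in shExosc8 cells, against 92.5%, 105% and 103% in shControl cells. The groups did not overlap, and Hmmr fell by 0.52 ± 0.12 on the log2 scale (SE; 95% interval -0.81 to -0.22; limma, adjusted p = 0.0246). The adjusted p was 0.0681 without shExosc8 replicate 2, and 0.0608, 0.0808 and 0.0895 without shControl replicates 1, 2 and 3, while the log2 fold change ran between -0.45 and -0.60 whichever array was left out. With the slide column as a block the adjusted p was 0.267, with differences of -0.54 and -0.62 within slide columns 2 and 3 (log2, no test). Its probe lies at chr11:40515324-40515383 of mm9 on the minus strand.

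Nusap1, a microtubule-bundling protein gene of the anaphase spindle, differed the other way. It was at 123%, 132% and 132% in shExosc8 cells, against 94.7%, 116.5% and 90.7% in shControl cells, without overlap. Its log2 fold change of 0.37 ± 0.13 (SE) did not pass (limma, adjusted p = 0.072). Kif11, the motor that pushes spindle poles apart, was at 91.5%, 80.4% and 109% in shExosc8 cells, against 93.8%, 105% and 101.5% in shControl cells, on both sides of the shControl arrays. Tpx2, the spindle assembly factor that binds Aurora A, was at 91.7%, 75.5% and 102% in shExosc8 cells, against 101%, 105% and 94.3% in shControl cells, a log2 fold change of -0.17 ± 0.14 (SE; limma, adjusted p = 0.376). Kif2c, a motor that shortens microtubules at centromeres, had a log2 fold change of -0.05.

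A second probe of Tpx2 gave a different picture from the first. On that probe, at chr2:152720285-152720344 of mm9, Tpx2 was at 64.3%, 53.6% and 55.2% in shExosc8 cells, against 103%, 95.4% and 102% in shControl cells. The groups did not overlap, and in the fit of all probes its log2 fold change was -0.80 ± 0.12 (SE; limma, adjusted p = 0.00605). It kept an adjusted p of 0.00871 to 0.0335 with 1 array left out in turn, and was the dimmer probe, assigned by the array design to another transcript accession of the same gene. The first probe lies upstream of it on the plus strand, at chr2:152719476-152719535. Of the 12 further probes of 9 mitosis genes past the filter, this was the only one past the threshold, and 10 had the sign of the gene's main probe. They included the second Racgap1 probe at 0.33 (adjusted p = 0.0592) and the other two Mad2l1 probes at -0.27 and -0.25, neither past the threshold.

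The 5 cytokinesis genes held no change past the threshold, and 3 of them had an unadjusted p under 0.05, as did 45.0% of all genes. Racgap1 and Kif23 encode the GTPase-activating protein and the motor that together form centralspindlin, the complex that bundles the central spindle. Kif23 was at 76.5%, 61.1% and 88.3% in shExosc8 cells, against 102%, 111% and 88.3% in shControl cells. Replicate 3 of shExosc8 met the lowest shControl array, and the log2 fold change of -0.43 ± 0.17 (SE) did not pass (limma, adjusted p = 0.102). Racgap1 was at 122%, 124% and 126% in shExosc8 cells, against 96.3%, 112% and 92.4% in shControl cells. Its groups did not overlap, and its log2 fold change was 0.31 ± 0.11 (SE; limma, adjusted p = 0.0787). The 2 subunits of 1 complex therefore had values of opposite sign, neither of which passed.

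Anillin (Anln), which scaffolds the contractile ring, was at 80.2%, 75.1% and 84.1% in shExosc8 cells, against 93.6%, 106% and 100.4% in shControl cells. The groups did not overlap, and the log2 fold change was -0.33 ± 0.11 (SE; limma, adjusted p = 0.0586). Without shExosc8 replicate 3 the adjusted p was 0.0389 for Anln and 0.0409 for Kif23. Kif20a, a motor of the central spindle, had a log2 fold change of -0.18 (adjusted p = 0.207) without overlap, and Prc1, which crosslinks antiparallel microtubules there, one of -0.13 (adjusted p = 0.44).

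For the chromosome-bound proteins, Top2a and Mki67 had values of opposite sign. Top2a, the topoisomerase that untangles sister chromatids, was at 84.2%, 77.1% and 84.8% in shExosc8 cells, against 103%, 107% and 90.2% in shControl cells. The groups did not overlap, and the log2 fold change of -0.29 ± 0.11 (SE) did not pass (limma, adjusted p = 0.0976). Mki67, which encodes the proliferation antigen Ki-67 at the surface of mitotic chromosomes, was at 112%, 105% and 117% in shExosc8 cells, against 105%, 114% and 83.6% in shControl cells. Its groups overlapped, at 0.15 ± 0.14 (SE; 95% interval -0.19 to 0.50).

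**Figure D3:**
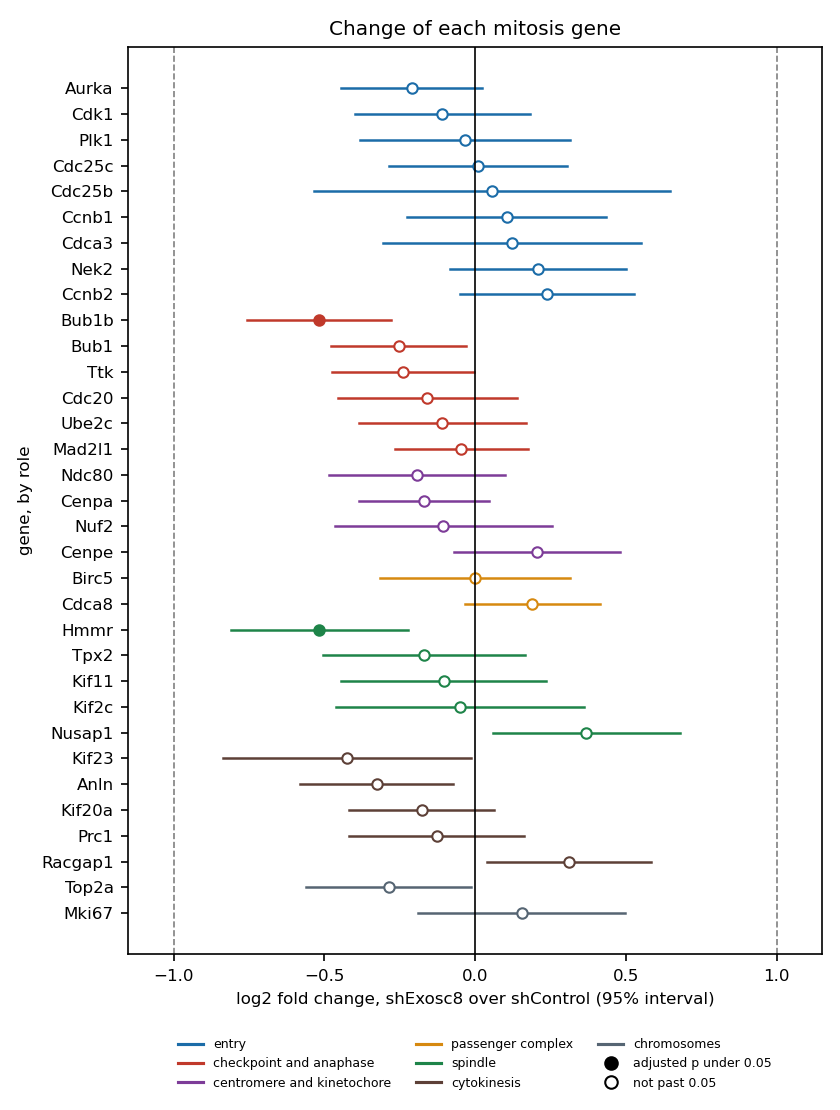
Log2 fold change of each of the 33 mitosis genes on its brightest probe, shExosc8 over shControl (horizontal axis; points, with lines for the 95% interval), by role (colours; rows). Filled points mark the 2 genes with an adjusted p under 0.05, Bub1b and Hmmr, and no line reaches the dashed lines that mark a 2-fold change.

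The arrays of 1 group differed among themselves in these genes. The median deviation of the 33 from the shControl mean was -0.11, -0.16 and -0.05 on shExosc8 replicates 1, 2 and 3, against 0.03, 0.04 and -0.05 on shControl replicates 1, 2 and 3. The shExosc8 replicate 2 array was the lowest of the 6 for 15 of the 33 genes, against 24.3% of all genes. The shControl replicate 3 array was the lowest for 9 of the 33, against 21.4% of all genes. The shControl replicate 2 array, which also had the highest share of spots above background, was the highest for 10 of the 33 and for 18.7% of all genes. Without shExosc8 replicate 3 and shControl replicate 2 together, Bub1b (adjusted p = 0.0334) stayed below the threshold, Hmmr did not (adjusted p = 0.0751), and Nusap1 passed it as a rise.

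Other genes of cell division, 110 measured in 6 lists, included calls in both directions. Of them 9 fell and 8 rose, against 13.8% and 16.0% of all genes, and the median was -0.12. With the percentile over all probes 26 fell and 7 rose, without scaling 47 fell and 2 rose, and with the slide column as a block 0 of either did. In those fits 7138, 9164 and 536 of all 18225 genes changed, and rises made up 37.1%, 18.0% and 92.5% of them. The anaphase-promoting complex and cohesion list held the largest change. Fzr1 encodes Cdh1, the second activator of the anaphase-promoting complex, which keeps it active as cells leave mitosis and in G1. It was at 331%, 328% and 286% in shExosc8 cells, against 104%, 114% and 84.0% in shControl cells, a rise of 1.65 ± 0.15 on the log2 scale (SE; limma, adjusted p = 0.00124). A second Fzr1 probe also rose, by 1.39 ± 0.17, and the rise passed with any 1 array left out. Of the 24 genes measured in this list, the subunit gene Cdc26 rose (0.58) and Cdc16 fell (-0.43), while the cohesin gene Smc3 did not pass (-0.42, adjusted p = 0.0574). The second Cdc26 probe had a value of -0.15 and did not pass.

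The list of other cytokinesis genes held 5 rises (38.5%) and 1 fall (7.69%) among the 13 measured of 17, against 16.0% and 13.8% of all genes. Rhob was at 242%, 239% and 203% in shExosc8 cells, against 108%, 83.1% and 111% in shControl cells. Rhoa, the GTPase that assembles the contractile ring, was at 196%, 191% and 166% in shExosc8 cells, against 109%, 95.6% and 95.6% in shControl cells. Neither overlapped between the groups, with rises of 1.19 ± 0.15 (limma, adjusted p = 0.00399) and 0.88 ± 0.12 (adjusted p = 0.00464) on the log2 scale (SE). The second probes of Rhob (0.51, adjusted p = 0.579) and Rhoa (0.16, adjusted p = 0.3) did not pass. Diaph3, a formin that nucleates actin for the ring, rose by 0.53, and its relative Diaph1 by 0.56, with values of 0.03 and 0.06 without scaling. Diaph1 passed in 6 of the 21 alternative fits and in 0 of the 6 with 1 array left out, and its second probe (0.48, adjusted p = 0.116) did not pass. Nonmuscle myosin genes went both ways, with Myh9 higher by 0.69 (-0.04 without scaling) and Myh10 lower at -0.66 ± 0.12 (SE; limma, adjusted p = 0.0116). The second Myh9 probe had a value of -0.76 (adjusted p = 0.0851), opposite in sign to the first. These genes also shape the cytoskeleton outside cytokinesis.

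In the other 4 lists 7 genes fell and 1 rose, where 13.8% of all genes fell and 16.0% rose. Among 28 other checkpoint and kinetochore genes 3 fell, the kinetochore genes Mis12 (-0.73), Cenpp (-0.39) and Cenpi (-0.34), and 1 rose, the passenger complex scaffold gene Incenp (0.69, and 0.64 on its second probe). Of 16 genes of mitotic entry and its transcription 2 fell, the phosphatase gene Cdc25a (-0.63) and the mitotic kinase gene Pbk (-0.39). The kinase genes Mastl (-0.36, adjusted p = 0.0797) and Wee1 (-0.38, adjusted p = 0.0975) did not pass, nor did the transcription factor gene Foxm1 (-0.27, adjusted p = 0.23), which activates many of the 35 genes. Of 22 spindle and centrosome genes 2 fell, Troap (-0.50) and the augmin subunit gene Haus6 (-0.36), while the motor genes Kifc1 (-0.47) and Kif15 (-0.41) did not pass. In the fit of all probes the second Haus6 probe was at -0.815 (limma, adjusted p = 0.0234), and the first did not pass (adjusted p = 0.0512). On its brightest probe Haus6 passed in 0 of the 6 fits with 1 array left out. The 8 condensin genes, whose products compact chromosomes, had 0 calls, also at an unadjusted p under 0.05 (limma; 45.0% of all genes), and a median of -0.07. The smallest p-values among them belonged to Ncapd2 (-0.30), Ncaph2 (-0.35), Smc4 (0.18) and Ncapd3 (-0.11). With 1 array left out in turn the counts over all 6 lists ran between 0 and 19 falls and between 3 and 8 rises. The 19 falls came without shExosc8 replicate 3, where 8418 of all 18768 genes changed, 50.6% of them higher. The 0 falls came without shExosc8 replicate 1, where 2356 of all 18270 genes changed, 70.6% of them higher. Fzr1 and Rhoa passed in all 6 fits with 1 array left out, and Rhob and Myh10 in 5. Rhob failed without shExosc8 replicate 3 and Myh10 without shExosc8 replicate 1. The other 13 passed in 3 or fewer.

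**Figure D4:**
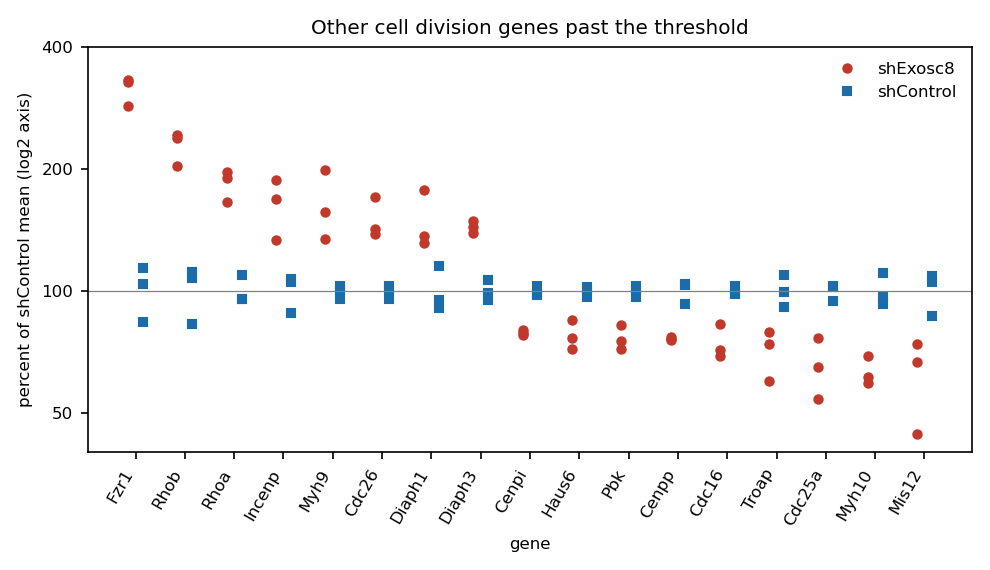
Signal on each array as a percentage of the shControl mean (vertical log2 axis) for the 17 other cell division genes past the threshold (horizontal axis), with shExosc8 arrays as red circles left of shControl arrays as blue squares. Fzr1 stands highest, at 286% to 331% in shExosc8 cells, and Mis12 and Myh10 are among the lowest.

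Transcripts of other blood cell types differed between the groups at the same time. Across all genes tested, 16.0% rose and 13.8% fell in shExosc8 cells. All 10 megakaryocyte marker genes rose in shExosc8 cells, where their summed signal was 807% to 1150% of the shControl mean, against 87.5% to 123% in shControl cells. All 9 measured of 10 neutrophil and monocyte markers rose, with sums of 320% to 432% in shExosc8 cells, against 90.8% to 111% in shControl cells. Of 5 measured of 9 macrophage markers 4 rose, with sums of 194% to 247% in shExosc8 cells, against 85.7% to 111% in shControl cells. Of 5 measured of 8 mast cell and basophil markers 4 rose, with sums of 262% to 425% in shExosc8 cells, against 85.2% to 125% in shControl cells. The filter on dim probes left out the neutrophil marker Ly6g and the macrophage markers C1qa, C1qc, Vcam1 and Mrc1. It also left out the mast cell and basophil markers Mcpt8, Fcer1a and Ms4a2. Of 5 measured of 8 hepatocyte markers 3 rose, with sums of 227% to 401% in shExosc8 cells, against 74.9% to 149% in shControl cells, but Alb, Apoa1 and Ttr did not pass the filter on dim probes. Among 4 measured of 6 lymphoid markers 0 changed (limma; 1, Cd79b, at an unadjusted p under 0.05), with sums of 116% to 122% in shExosc8 cells, against 92.7% to 108% in shControl cells. Of 10 erythroid markers 4 rose and 1 fell, with sums of 145% to 188% in shExosc8 cells, against 78.2% to 117% in shControl cells. Whether other cells were present, or the erythroid cells themselves expressed these markers, was not tested. All cell types that divide express the mitosis genes. Any part of other cells in the differences of the 33 mitosis genes, Rhoa, Rhob, Myh9 or Fzr1 was not tested either.

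In the authors' deposited table of the same comparison, 0 of the 33 mitosis genes had an adjusted p under 0.05. Of the 59305 non-control spots in it, 1980 (3.34%) had one, so that the count of 0 lies near the share of the whole array. Unadjusted, 3 of the 33 had a p under 0.05 in the authors' deposited table (Bub1b, Hmmr and Kif23), as did 20.8% of its non-control spots. Bub1b had a log2 fold change of -0.64 (adjusted p = 0.146) and Hmmr one of -0.61 (adjusted p = 0.171) in the authors' deposited table. The sign was the same as above for 31 of the 33 genes, and the median of the 33 in the authors' deposited table was -0.11, against -0.08 over all its non-control spots. The exact permutation test of 1 gene's 6 values, two-sided, cannot give a p under 0.1 with 3 arrays against 3, and gave 0.1 for Bub1b, Hmmr and Exosc8.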

How the data were processed

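The members and the gene lists were chosen with earlier results of these data known. The deposited intensity values came from Agilent Feature Extraction 10.7.3.1, which subtracted background and detrended each array, per the file headers, and the same software wrote the flags for spots above background, saturated or outlying. The authors' deposited table holds intensity values equal to those of the scanner files, beside the log2 fold changes and p-values of a comparison for which the submitters' processing notes name limma. Of 62976 features, 3671 control spots and all flagged spots were left out, spots of 1 probe were averaged, and 55660 probes were named through RefSeq (GRCm38.p6; 27495 by accession, 3549 by symbol) or as in the files (24616). Log2 signals were scaled by each array's 75th percentile over the 21613 probes above background on all 6 arrays. A probe was kept where every array of 1 group or of both had it above background, and the brightest probe stood for each gene. No spot was saturated. The comparison used lmFit and eBayes of limma 3.58.1 under R 4.3.3, two-sided, and this step was tested on simulated data. Probe positions are on mm9, and no annotation of that build was used to place them in exons or UTRs. The number of arrays limits the precision. Values on every array are given for members past the threshold, the 4 largest rises and falls and 1 or more fixed genes per role; for the other cell division lists, the 4 genes with the smallest p are named, and further names were chosen after their values were seen. Alternatives covered scaling, background correction, the filter, probe choice, weights, blocks and leaving out arrays.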

Additional observations from a re-analysis of the deposited data

How the results depend on the processing

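Exosc8 was lower in shExosc8 cells under every alternative run and, among the fits made here, lost its call only when slide column was a block, a fit with 1 residual degree of freedom (-1.03, adjusted p = 0.124). In the authors' deposited table its adjusted p was 0.073. Bub1b and Hmmr had values below 0 in all 21 alternative fits, and passed the threshold in 17 and 13 of them. The number of mitosis genes changed was 2 as reported, 7 with the percentile over all probes, 11 without scaling, 11 with array weights (4 of them higher), 5 with a trend in eBayes (2 higher), 1 with the replicate number as a block, and 0 without the filter on dim probes, with the slide column as a block and in the authors' deposited table. With 1 array left out it ran between 0 and 6, with 0 without shControl replicate 1 or 3, 1 without shExosc8 replicate 2 or shControl replicate 2, and 6 without shExosc8 replicate 3. The other alternatives gave 2 or 3. Numbers of all genes changed, which also moved with the fit, are given below. Same-numbered arrays' deviations correlated at 0.04, 0.22 and 0.30, which does not settle whether the replicate numbers pair the samples. The median of the mitosis genes was -0.25 with the percentile over all probes and -0.60 without scaling, where the median of all genes was -0.21 and -0.56. Both scalings shift all genes alike and leave the difference between the medians as reported, -0.04. It was -0.14 after normexp background correction with the 75th percentile, -0.13 without shExosc8 replicate 3, -0.18 without that array and shControl replicate 2, and 0.03 without shExosc8 replicate 2. Of all 18225 genes, 5444 changed as reported, 7138 with the percentile over all probes, 9164 without scaling and 9938 with array weights. With a trend in eBayes 6245 changed, with the replicate number as a block 5632, and with the slide column as a block 536. Without the filter 1818 of 34950 changed. With 1 array left out the number ran from 2356 of 18270 (without shExosc8 replicate 1) to 8418 of 18768 (without shExosc8 replicate 3). Rises made up 53.7% of the genes changed as reported, 66.9% after normexp background correction, 37.1% with the percentile over all probes and 18.0% without scaling. Array weights were fitted gene by gene because the default method did not converge. The position of each group in 1 row of the slide could not be varied.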
